A study of Mus musculus with 165 samples.

Results

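The receptors that carry the myeloid cytokines were followed through 7 days of differentiation in PUER cells. The genes were *Csf2rb*, *Csf2rb2*, *Csf2ra*, *Il3ra*, *Il5ra*, *Csf3r*, *Il6ra* and *Csf1r*, 8 of the 36255 genes in the table. Their rows were found by symbol, without use of any measured value. The list itself was chosen with earlier results of these data known. PUER cells are a mouse line of hematopoietic progenitors, for which the paper names both fetal liver and bone marrow as the source. They lack *Spi1*, the gene of the transcription factor PU.1, and carry PU.1 fused to an estrogen receptor domain, so that 4-hydroxy-tamoxifen (OHT) activates the fusion. Every group shares that genotype. Undifferentiated cells grew in IL3 at 5 ng/ml without OHT (3 libraries), and GCSF 0h cells had spent 48 h in GCSF at 10 ng/ml in place of IL3, before OHT (3 libraries). IL3-OHT cells stayed in IL3 and received 200 nM OHT (81 libraries), and GCSF-OHT cells received 100 nM OHT after the exchange to GCSF (78 libraries), each sampled at 27 time points from 1h to 168h. The OHT dose differs between the courses, so dose and cytokine cannot be told apart, and each time point came from its own plate of 48 wells, so time and plate cannot be told apart either. Part of the medium was renewed, with fresh OHT, at 40h, 88h and 136h. Cells of all time points after 24h were detached with trypsin. In comparisons of these with earlier groups, time and detachment cannot be told apart.

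Most of these receptors have no kinase of their own and signal through bound JAK kinases and STAT factors, whereas *Csf1r*, the receptor of M-CSF, is itself a tyrosine kinase. The IL3, GM-CSF and IL5 receptors each join an α chain that recognises the cytokine (*Il3ra*, *Csf2ra*, *Il5ra*) to the common β chain *Csf2rb*, and mice have a further β chain, *Csf2rb2*, that serves IL3 alone. GCSF, which drives neutrophil production, acts through *Csf3r*, and IL6 acts through *Il6ra* with the transducer gp130 (*Il6st*). PU.1 is an ETS factor whose sites hold the core GGAA, and several of these receptor genes are known PU.1 targets.

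Depth was 14600246 to 33147945 reads on genes per library (median 21960878), and 1 read was worth 0.652 to 1.84 normalized counts. The values below are the deposited normalized counts, which are comparable between libraries for a gene but not between genes unless they are divided by length. *Spi1* reads cannot check the knockout, since the fusion carries *Spi1* sequence. Of 10 neutrophil markers, 9 or 10 had a median of at least 10 in each of the start and end groups, with a summed level of 334635 to 341708 in undifferentiated cells and 751981 to 799811 at GCSF-OHT 168h. Of 10 macrophage markers, *C1qa* and *C1qb* never passed 3 reads, and the summed level was 2642 to 2924 in undifferentiated cells, 11212 to 11918 in the last IL3-OHT group and 5908 to 6121 in the last GCSF-OHT group. The part of such mixtures in the results was not tested, and in bulk RNA fewer cells of a type and less RNA per cell cannot be told apart. The authors left out IL3-OHT 96h and 144h, and these enter only the comparisons that name them. The study calls its replicates biological, and those of a time point came from wells of the same plate. No source used here says that they were separate cultures before seeding, so p-values measure the spread between these wells.

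The ETS motifs near the gene starts are shown because PU.1 activation is the treatment. In RefSeq promoters of 300 bases (250 before and 50 after the start, GRCm38.p6), 6 of the 8 genes were present. *Csf2rb* and *Csf1r* had no entry and were not searched. AGGAAGT, a PU.1-type motif searched on both strands, was found in 3 of the 6, *Csf2rb2*, *Il3ra* and *Il6ra*, and in 9.35% of 32851 promoters. The shorter GAGGAA was in 5 of the 6 and in 28.3% of all promoters, and GGAA alone was in 96.0%. The sites read, 5′ to 3′ on the strand of the gene with the motif in capitals (ACTTCCT is AGGAAGT on the other strand), as follows.
*Csf2rb2* (chr15:78305677-78305705, minus strand, motif 28 bases after the start): gggcactggcaACTTCCTcaatctgctct
*Il3ra* (chr14:14346344-14346372, plus strand, motif 140 bases before the start): cccactatctcAGGAAGTtgctcaatctc
*Il6ra* (chr3:89913353-89913381, minus strand, motif before the start): ggcgcggctgcAGGAAGTaaccccctccg
*Csf3r*, which held GAGGAA (chr4:126024562-126024590, plus strand, motif 86 bases before the start): ctccttcctgaGAGGAAggggctgtctat
The 250 bases before the start of *Csf2rb2*, the member whose level rose most over the first 8h of OHT, are given with GAGGAA on the other strand (TTCCTC) in capitals; a further GAGGAA match overlaps the AGGAAGT above.
*Csf2rb2* (chr15:78305722-78305971, minus strand): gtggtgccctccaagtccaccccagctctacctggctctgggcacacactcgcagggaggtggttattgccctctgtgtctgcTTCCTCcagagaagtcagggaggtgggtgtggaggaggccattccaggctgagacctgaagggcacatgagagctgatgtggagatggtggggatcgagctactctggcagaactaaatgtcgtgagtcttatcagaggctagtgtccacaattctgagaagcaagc
Distances here are from RefSeq starts, whereas the gene positions given below are from GENCODE M21. By the GENCODE positions, the *Csf3r* and *Il3ra* sites lie inside the gene, after its start. These matches describe the letters in the window and do not show binding.

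Both β chain genes rose within hours of OHT in both cytokines and stayed above their start to the end. *Csf2rb* (ENSMUSG00000071713, chr15:78325752-78353847, plus strand, GRCm38), the signalling chain shared by IL3, GM-CSF and IL5, had normalized counts of 14766, 14704 and 13766 in undifferentiated cells and 17754, 18652 and 18570 at GCSF 0h. At 4h of OHT it reached 69150, 67878 and 68325 in IL3 and 52915, 54640 and 51775 in GCSF. These 4 groups did not overlap, and IL3-OHT 4h was the highest of all 56 groups. The change from the start at 4h was 2.25 on the log2 scale in IL3 (4.75-fold, SE 0.04, limma adjusted p = 4.15e-77) and 1.54 in GCSF (2.90-fold, adjusted p = 8.05e-60). At 168h *Csf2rb* was still 2.07-fold higher than in undifferentiated cells in IL3 (29772 ± 252, SD, n = 3) and 2.23-fold higher than at GCSF 0h in GCSF (40815 ± 706). It passed the test against its start at 24 of 25 time points in IL3 and 26 of 27 in GCSF, the exception being 1h in each course. Over all genes and time points, 26.7% of such tests were called in IL3 and 15.4% in GCSF.

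*Csf2rb2* (ENSMUSG00000071714, chr15:78282507-78305721, minus strand), the IL3-specific β chain that lies next to *Csf2rb*, moved further. It had 2648, 2617 and 2549 normalized counts in undifferentiated cells and 2760, 2923 and 2799 at GCSF 0h, groups whose libraries lie close to each other. After 1h of OHT it was at 4095, 4158 and 4304 in IL3 and at 6599, 5931 and 5677 in GCSF, above the start in every library. It was highest at 8h in IL3, with 36379, 36214 and 37712 (14.1-fold, log2 change 3.82, SE 0.05, adjusted p = 1.13e-93), and at 4h in GCSF, with 28952, 29844 and 28258 (10.3-fold, log2 change 3.36, adjusted p = 1.63e-87). It then fell back in IL3 between 8h and 16h (a log2 change of -0.69 to 12h and another of -0.69 to 16h). In GCSF it fell back too, more gradually, with 0 single steps called as a fall. The GCSF libraries from 12h to 72h had 9811 to 17018, below every GCSF library at 4h. At 168h it stood at 7310, 7547 and 7755 in IL3 and 14427, 13963 and 15110 in GCSF, which do not overlap. *Csf2rb2* was called higher than its start at 25 of 25 time points in IL3 and 27 of 27 in GCSF.

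**Figure D1:**
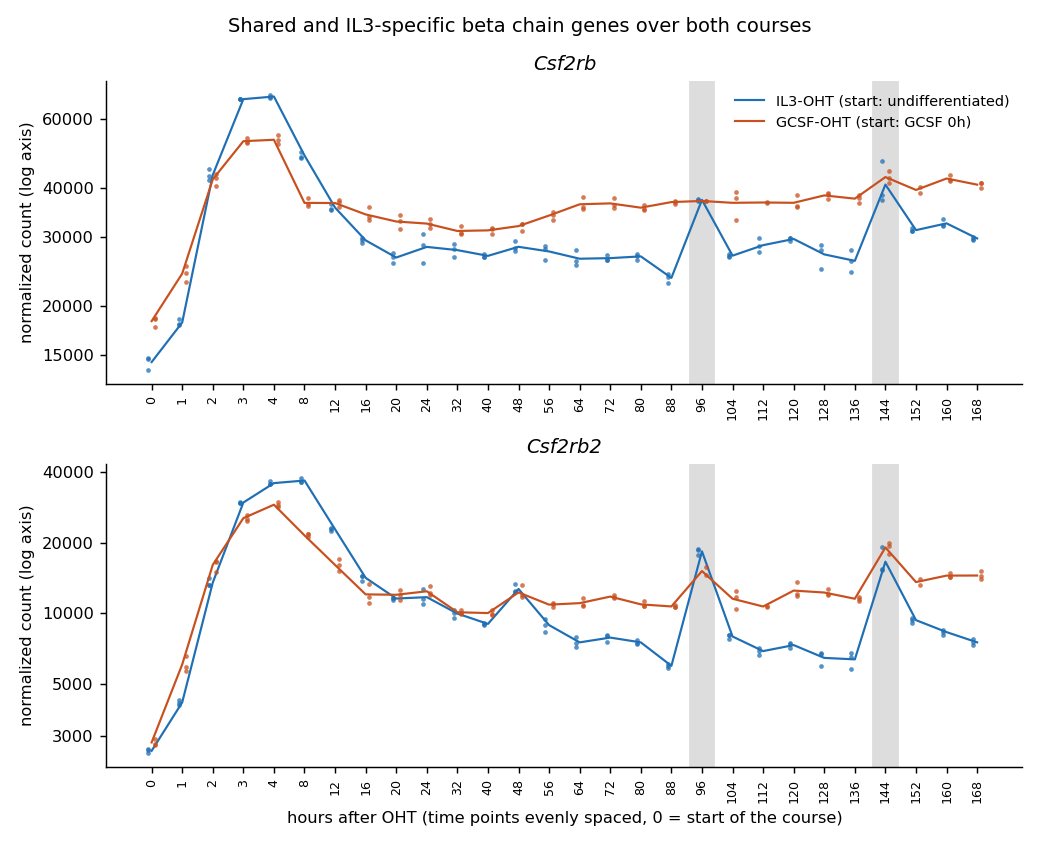
Normalized counts of *Csf2rb* and *Csf2rb2* (log axis) against hours after OHT, with time points evenly spaced. Points are libraries and lines join time-point means, in blue for IL3-OHT (first point undifferentiated) and orange for GCSF-OHT (first point GCSF 0h), with grey bands at 96h and 144h; in IL3 *Csf2rb2* goes from 2605 to 36768 at 8h and shows peaks in the grey bands.

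The share of *Csf2rb2* in the summed counts of both β chain genes was 15.3% ± 0.272 (SD, n = 3) in undifferentiated cells and 13.4% ± 0.239 at GCSF 0h. It rose to 43.2% ± 0.123 at 8h in IL3 and 36.9% ± 0.412 at 8h in GCSF, and was 20.2% ± 0.345 and 26.2% ± 0.527 at 168h. The transcripts of the 2 genes are near copies of each other: they are 95.1% identical over 3108 aligned bases, and 28.1% of the 31-base runs of *Csf2rb* also occur in *Csf2rb2*. How the authors' quantification divided shared reads between them is uncertain, and the sum of both is less affected by it than either gene. The sum had a mean of 17017 in undifferentiated cells, 104296 at IL3-OHT 4h and 37309.5 at IL3-OHT 168h. In GCSF the sum was 21152.5 at GCSF 0h, 82128 at GCSF-OHT 4h and 55315 at GCSF-OHT 168h.

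*Csf2rb2* was also the member that differed most from its neighbours after each medium refresh in IL3. In IL3 it went from 5987 ± 124 at 88h to 17652, 18805 and 18661 at 96h, 8 h after fresh OHT, and back to 7981 ± 195.6 at 104h. A like course ran from 6380 ± 507 at 136h to 15248, 15487 and 19084 at 144h and back to 9366 ± 208.3 at 152h. No library of either refreshed time point overlapped its neighbours. Against the mean of the neighbouring time points the log2 difference was 1.41 at 96h and 1.10 at 144h, and *Csf2rb2* was the 1 member of 7 called at each, where 17.5% and 15.4% of all genes were called. At 48h in IL3 the difference was 0.50, under the fold threshold, with no member called and 1.60% of all genes called. In GCSF the differences were 0.23 at 48h, 0.45 at 96h and 0.61 at 144h, of which only the last was called, as the 1 member called there (1.85% of all genes, and 0.350% at 48h and 4.65% at 96h with no member called). *Csf2rb* differed by 0.57 and 0.51 at 96h and 144h in IL3, which did not pass the fold threshold, and by -0.03 to 0.15 in GCSF. *Csf3r* differed by -0.37 and -0.18 at 96h and 144h in IL3, also under that threshold. All 3 GCSF comparisons and that of IL3-OHT 48h were added after the values were seen. The authors had set IL3-OHT 96h and 144h aside because their expression looked different from that of the neighbouring time points. That is the contrast tested here, so the calls at IL3-OHT 96h and 144h are not independent of that choice.

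**Figure D2:**
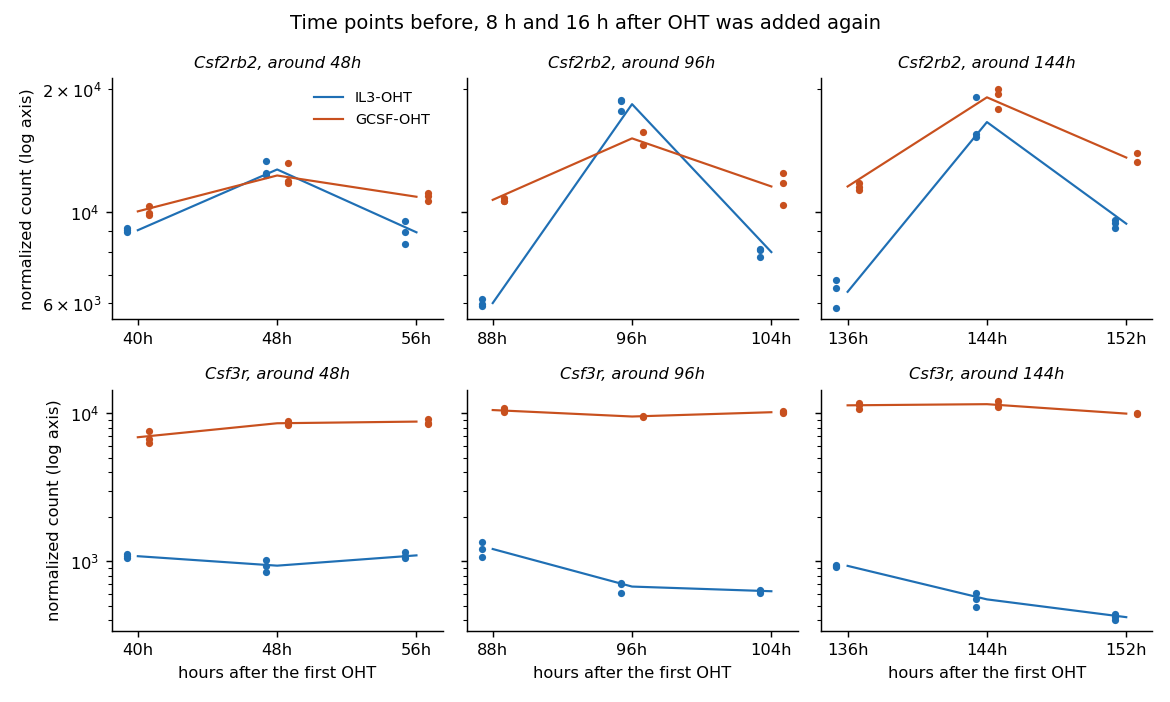
Normalized counts (log axis) of *Csf2rb2* (upper row) and *Csf3r* (lower row) at the time point of each medium refresh (40h, 88h, 136h), 8 h after it and at the next time point, in IL3-OHT (blue) and GCSF-OHT (orange). Points are libraries and lines join means; *Csf2rb2* in IL3 stands at 5987 at 88h, 18373 at 96h and 7981 at 104h, while *Csf3r* in IL3 is lower after the refresh at 88h and 136h.

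*Csf3r* (ENSMUSG00000028859, chr4:126024550-126044440, plus strand), the GCSF receptor, separated the 2 cytokines more widely than any other member. It had 1022, 1173 and 1103 normalized counts in undifferentiated cells and 5266, 6040 and 5847 after 48 h of GCSF, before OHT, a 5.20-fold rise (log2 change 2.38, SE 0.06, adjusted p = 7.42e-63). Both groups are far apart, with no overlap. OHT was first followed by a fall in each course: at 4h *Csf3r* was at 301.5, 332.6 and 292.7 in IL3 (log2 change -1.83, adjusted p = 3.29e-51) and at 3623, 3783 and 3278 in GCSF (-0.68, adjusted p = 4.40e-17). These were the lowest levels in both courses, below every starting library.

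After this early fall, *Csf3r* climbed in GCSF to 12081, 11492 and 12068 at 160h, the highest of all groups, and was at 10305, 10245 and 10720 at 168h (1.82-fold over GCSF 0h, log2 change 0.87, adjusted p = 2.20e-24). In IL3 it was back at its starting level by 40h (log2 difference -0.02) and ended at 716, 709 and 719 (log2 change -0.62, adjusted p = 1.50e-15). Without replicate 2, this last difference is -0.56 and no longer passes the fold threshold. Between 80h and 168h the level in IL3 swung: it was 1205, 1074 and 1353 at 88h, then 641, 628 and 615 at 104h (step of -0.94), and 931.6 ± 9.88 at 136h, then 438.8, 402.6 and 417.8 at 152h (step of -1.15). Both drops span a medium refresh, and the part of the refresh in them was not tested. *Csf3r* was called lower than its start at 12 of 25 time points in IL3, and at 2 of 27 in GCSF, where it was called higher at 16.

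At each of the 25 shared time points every GCSF-OHT library lay above every IL3-OHT library for *Csf3r*. Over all 27 time points libraries ranged from 292.7 to 1353 in IL3 (median 729) and from 3278 to 12081 in GCSF (median 8628), and the mean log2 difference over the shared time points was 3.35 (10.1-fold, SE 0.01, adjusted p = 3.35e-155). Over all genes and shared time points, 52.8% of pairs of groups did not overlap. The other members were less one-sided: the GCSF libraries were all above those of IL3 at 20 time points for *Csf2rb* (below at 3), 16 for *Csf2rb2* (below at 5), 16 for *Il6ra* (below at 1) and 17 for *Csf1r* (below at 1). For the α chains the IL3 libraries were more often the higher ones, at 11 time points for *Csf2ra* (lower at 5) and 12 for *Il3ra* (lower at 3).

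**Figure D3:**
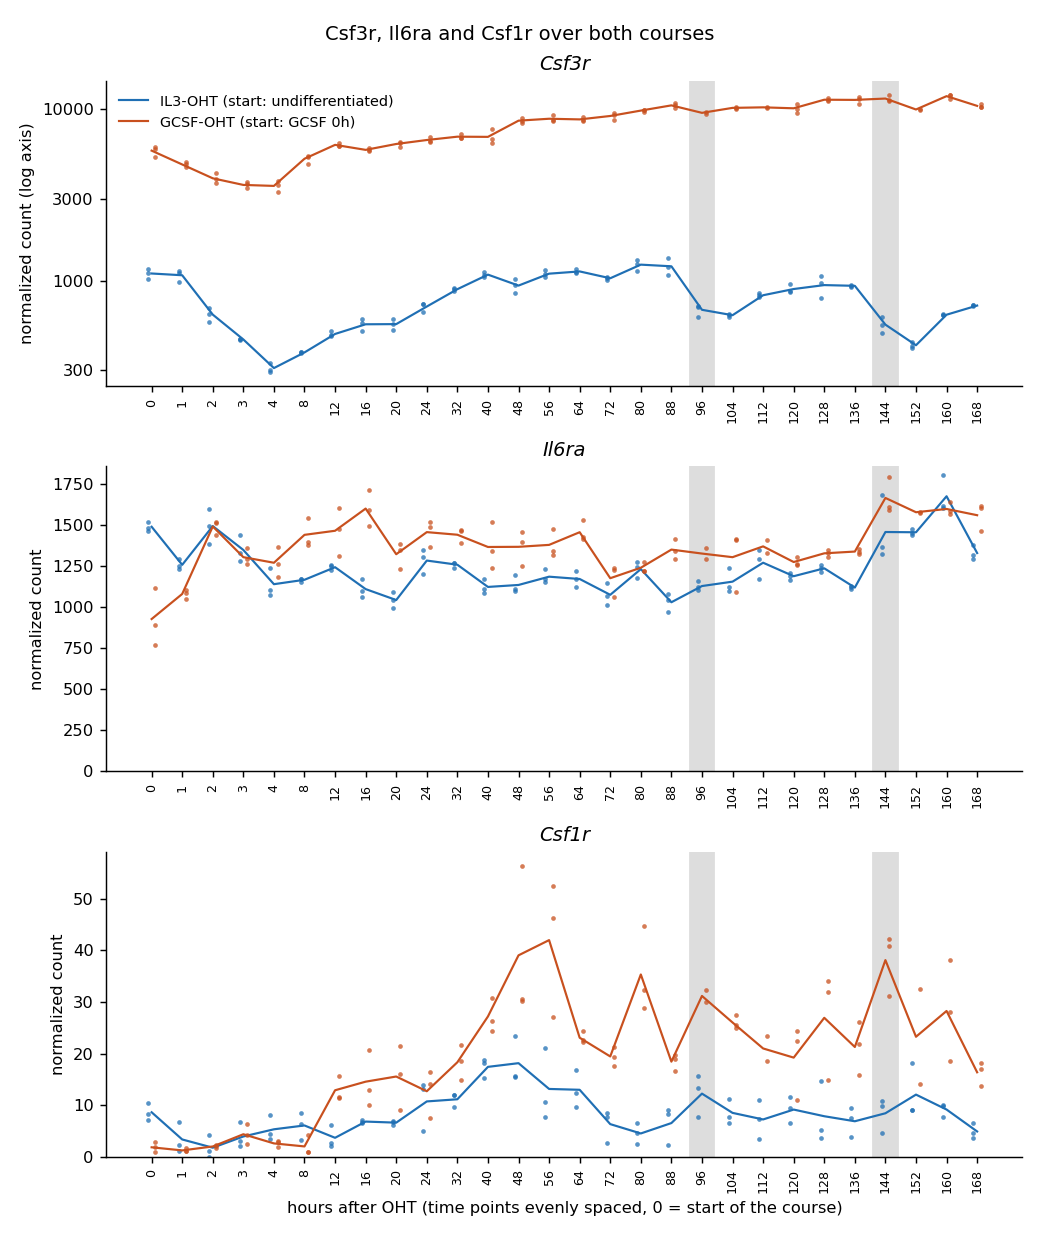
Normalized counts of *Csf3r* (log axis), *Il6ra* and *Csf1r* (linear axes) against hours after OHT, with points, lines and colours as for the β chains. For *Csf3r* the GCSF-OHT points lie above the IL3-OHT points at all 25 shared time points, *Il6ra* starts lower in GCSF, and *Csf1r* is at most 56.3 in any library.

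*Il6ra* (ENSMUSG00000027947, chr3:89864059-89913196, minus strand), the ligand-binding chain of the IL6 receptor, fell on exchange to GCSF and came back after OHT. It had 1523, 1466 and 1487 normalized counts in undifferentiated cells and 1121, 892 and 774 at GCSF 0h, which do not overlap (log2 change -0.70, SE 0.07, adjusted p = 2.47e-16). The spread at GCSF 0h is wide, and without replicate 3 the difference is -0.58, just under the fold threshold. In GCSF-OHT it was 1493 ± 43.8 by 2h (log2 change from GCSF 0h 0.70, adjusted p = 1.99e-15) and 1615, 1464 and 1607 at 168h (0.76, adjusted p = 2.86e-18), near the undifferentiated level (log2 difference 0.07, 95% interval -0.07 to 0.20). In IL3 it was called at 0 of 25 time points, with time-point means between 1031 at 88h and 1678 at 160h. In GCSF it was called higher than GCSF 0h at 12 of 27.

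*Csf1r* (ENSMUSG00000024621), the M-CSF receptor and a marker of monocytes and macrophages, was expressed at a low level. The median library had a normalized count of 7.64 in IL3-OHT and 19.2 in GCSF-OHT. Undifferentiated libraries had 7 to 8 reads, GCSF 0h libraries 1 to 3, and the highest of all libraries had 77 reads, a normalized count of 56.3. In 34 libraries it had 3 reads or fewer. Ratios are therefore given with an exact binomial interval that covers counting error only. Scaled by depth, undifferentiated cells had 4.65 times the level of GCSF 0h (22 against 6 reads in all, 95% interval 1.83 to 14.03).

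The highest group for *Csf1r* was in GCSF, not in IL3. At GCSF-OHT 56h the libraries had 46.3, 27.1 and 52.6 normalized counts, 22.9 times GCSF 0h (interval 10.3 to 63.4) and 3.19 times IL3-OHT 56h (2.21 to 4.72). At 168h GCSF-OHT libraries had 13.8, 18.3 and 17.1 and IL3-OHT libraries 3.56, 4.57 and 6.60, which do not overlap (ratio 3.25, 48 against 15 reads, 1.79 to 6.24). In IL3 the gene fell early, to 4.19, 1.10 and 0 at 2h, with undifferentiated cells 5.04 times higher (22 against 4 reads, 1.71 to 20.1), and was highest at 48h, with 23.4, 15.5 and 15.6 (2.13 times undifferentiated, 1.30 to 3.61). GCSF-OHT 56h, IL3-OHT 2h and IL3-OHT 48h were picked by these same values, as extremes of their courses. The intervals do not cover that choice. Against its start *Csf1r* was called higher at 22 of 27 time points in GCSF, first at 12h, and in IL3 at 1 higher and 4 lower of 25. Fitted log2 changes of so few reads depend on the pseudocount. They were -1.80 at GCSF 0h (adjusted p = 1.33e-04), 2.66 from GCSF 0h to 168h (adjusted p = 4.04e-08) and 0.86 from undifferentiated cells to GCSF-OHT 168h (adjusted p = 0.0739).

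The 2 measured α chains moved less than the β chains, and with the base composition of the library. *Csf2ra* (ENSMUSG00000059326, chr19:61223957-61228429, minus strand), the GM-CSF α chain, had 2389, 2176 and 2259 normalized counts in undifferentiated cells, and 2043, 2051 and 2044 at GCSF 0h. At 168h it had 2069, 1748 and 1906 in IL3 and 1773, 1625 and 1767 in GCSF. None of the tested differences between these groups was called. Its highest group was IL3-OHT 80h with 5460, 4954 and 4297 (2.16-fold over undifferentiated, log2 change 1.10, adjusted p = 4.73e-14), above every undifferentiated library. It was called higher at 5 of 25 time points in IL3 and 1 of 27 in GCSF, 12h, where the mean was 3190 ± 272.

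*Il3ra* (ENSMUSG00000068758, chr14:14346275-14356011, plus strand), the IL3 α chain, had 1268, 1237 and 1124 normalized counts in undifferentiated cells and 981, 900 and 1007 at GCSF 0h (log2 difference -0.33, not past the fold threshold). At 168h it was at 882, 715 and 825 in IL3 (log2 change -0.59, SE 0.13, adjusted p = 3.19e-05) and at 754, 596 and 690 in GCSF (-0.84 from undifferentiated, adjusted p = 4.41e-09), below every undifferentiated library in both. The fall in IL3 is not called without replicate 2 (-0.48) or with edgeR (-0.56).

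*Csf2ra* and *Il3ra* have GC-rich transcripts, 61.5% and 60.7% GC, above 97.6% and 96.4% of coding genes. The GC balance of a library, the mean log2 level of the tenth of genes with the highest GC content minus that of the tenth with the lowest, was 0.436 ± 0.104 (SD, n = 3) in undifferentiated cells, 0.865 ± 0.115 at IL3-OHT 80h, the highest group, 0.352 ± 0.159 at IL3-OHT 168h and -0.114 ± 0.0648 at GCSF-OHT 168h. Across all libraries, deviations from the time-point mean of the gene and of the GC balance had a Pearson's r of 0.867 for *Csf2ra*, 0.819 for *Il3ra*, 0.696 for *Csf2rb*, 0.637 for *Csf2rb2*, 0.370 for *Csf3r* and 0.280 for *Il6ra*, which describes libraries that share preparation and scaling. At IL3-OHT 104h, for example, *Csf2ra* had 5005, 3402 and 3260 and *Il3ra* 1822, 1083 and 1099, replicate 1 being the high library for both. With the GC balance as a covariate, chosen after seeing the data, the *Il3ra* differences from undifferentiated cells became -0.51 in IL3 and -0.37 in GCSF and were no longer called, and that of *Csf2ra* at GCSF-OHT 168h went from -0.40 to 0.08. The calls of *Csf2rb*, *Csf2rb2* and *Csf3r* at the endpoints were made with that covariate too.

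**Figure D4:**
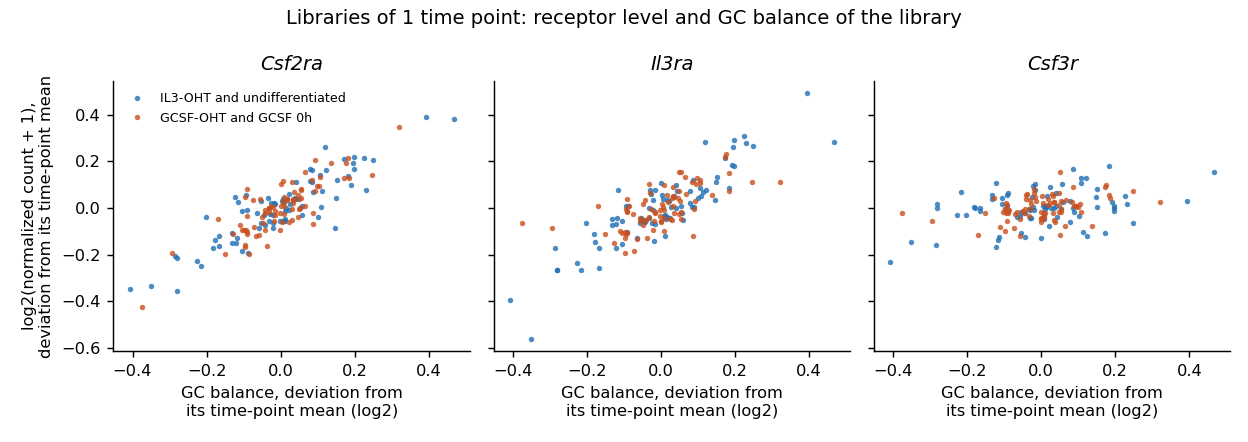
Deviation of the log2 level of *Csf2ra*, *Il3ra* and *Csf3r* from the mean of its time point against the deviation of the library's GC balance, 1 point per library. The points of *Csf2ra* and *Il3ra* follow a line (r = 0.867 and 0.819), and those of *Csf3r* scatter more (r = 0.370).

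*Il5ra* (ENSMUSG00000005364, chr6:106710357-106749037, minus strand), the IL5 α chain that marks eosinophils and some B cells, had at most 2 reads in any library and had a read in only 6 libraries. It was not tested. Its highest library had a normalized count of 2.20, and at this depth a change was not detectable.

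Put on 1 scale as normalized counts per kb of the longest coding transcript, *Csf2rb* was the highest member in undifferentiated cells at 2941, ahead of *Csf2ra* at 1230. *Csf2rb2* (549.6) and *Il3ra* (522) came next, followed by *Csf3r* (316), *Il6ra* (172.7) and *Csf1r* (1.84). At IL3-OHT 4h *Csf2rb* was at 13970 and *Csf2rb2* at 7562 per kb, both above *Csf2ra* at 1014, while *Csf3r* was at 88.7. At GCSF-OHT 168h *Csf3r* reached 2994 per kb, next to *Csf2rb2* at 3059 and below *Csf2rb* at 8330. At IL3-OHT 168h it was at 205.3, under *Il3ra* at 349. Within a gene, neighbouring groups in the order of the 56 levels lay within the larger SD of the pair in 42 of 55 cases for *Csf2rb*, 35 for *Csf2rb2*, 37 for *Csf3r*, 53 for *Csf2ra*, 54 for *Il3ra*, and all 55 for *Il6ra* and *Csf1r*.

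Across the comparisons, 7 members were tested. At GCSF 0h 3 of 7 differed from undifferentiated cells (*Csf3r* up, *Csf1r* and *Il6ra* down), where 33.7% of all genes were called. GCSF 0h cells had also been washed for the exchange and came from another plate, so cytokine, washing and plate cannot be told apart. At 168h 4 of 7 differed from undifferentiated cells in IL3 (*Csf2rb* and *Csf2rb2* up, *Csf3r* and *Il3ra* down; 25.4% of all genes) and 4 of 7 in GCSF (*Csf2rb*, *Csf2rb2* and *Csf3r* up, *Il3ra* down; 39.1%). From GCSF 0h to GCSF-OHT 168h 5 of 7 rose and none fell (24.8%), *Csf2ra* and *Il3ra* being the others at -0.25 and -0.51. Any change over the course was called for 6 of 7 in IL3, all but *Il6ra* (69.7% of all genes), and 6 of 7 in GCSF, all but *Il3ra* (47.7%). Among consecutive time points, members passed the test in 14 steps in IL3, 8.00% of the members' steps (3.65% of the steps of all genes), and in 6 steps in GCSF, 3.17% (1.81%).

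By window, the mean over 1h to 8h of OHT differed from the start for 4 of 7 members in IL3 (12.4% of all genes). *Csf2rb* was higher by 1.63 and *Csf2rb2* by 2.83 on the log2 scale, and *Csf3r* (-1.09) and *Csf1r* (-1.14) were lower. In GCSF 2 of 7 were called (4.09%), *Csf2rb* at 1.13 and *Csf2rb2* at 2.61. Over 12h to 72h the β chains alone were called in IL3 (29.9%), at 0.97 and 2.08, while in GCSF *Csf2rb* (0.88), *Csf2rb2* (2.06), *Csf1r* (2.95) and *Il6ra* (0.61) were (12.0%). Over 80h to 168h *Csf2rb* and *Csf2rb2* were called in IL3 (0.96 and 1.49; 31.2%), and 5 of 7 in GCSF (23.7%), namely *Csf2rb* (1.05), *Csf2rb2* (2.11), *Csf3r* (0.88), *Csf1r* (3.10) and *Il6ra* (0.60).

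Whether the change from the start differed between the courses was tested as an interaction. It was the change from GCSF 0h in GCSF minus the change from undifferentiated cells in IL3. Every time point after 0h had OHT, so OHT, time in culture and plate cannot be told apart here. Cytokine and OHT dose cannot either. For 1h to 8h the interaction was called for 3 of 7 members (10.0% of all genes), *Csf1r* at 1.36, *Il6ra* at 0.74 and *Csf3r* at 0.63. For 12h to 72h the same 3 were called (25.2%), at 2.83, 0.97 and 0.79. For 80h to 168h they were at 3.36, 0.84 and 1.33, and *Csf2rb2* was the fourth at 0.62 (26.4%). *Csf2rb2* drops to 0.49, under the fold threshold, when the excluded IL3-OHT 96h and 144h libraries are kept. The early *Csf1r* value is not called without replicate 2 (1.04), with edgeR (1.44) or with DESeq2 (1.49). The early rise of *Csf2rb* was smaller in GCSF by 0.50, which did not pass the fold threshold.

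In level, GCSF-OHT and IL3-OHT differed for 1 of 7 members over 1h to 8h (32.0% of all genes), 2 over 12h to 72h (17.5%) and 3 over 80h to 168h (33.0%). *Csf3r* was called in each window, at 3.01, 3.16 and 3.71, *Csf1r* in the later windows at 1.03 and 1.55, and *Csf2rb2* in the last at 0.74. Over all shared time points *Csf3r* and *Csf1r* (0.94) were called (24.5%).

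**Figure D5:**
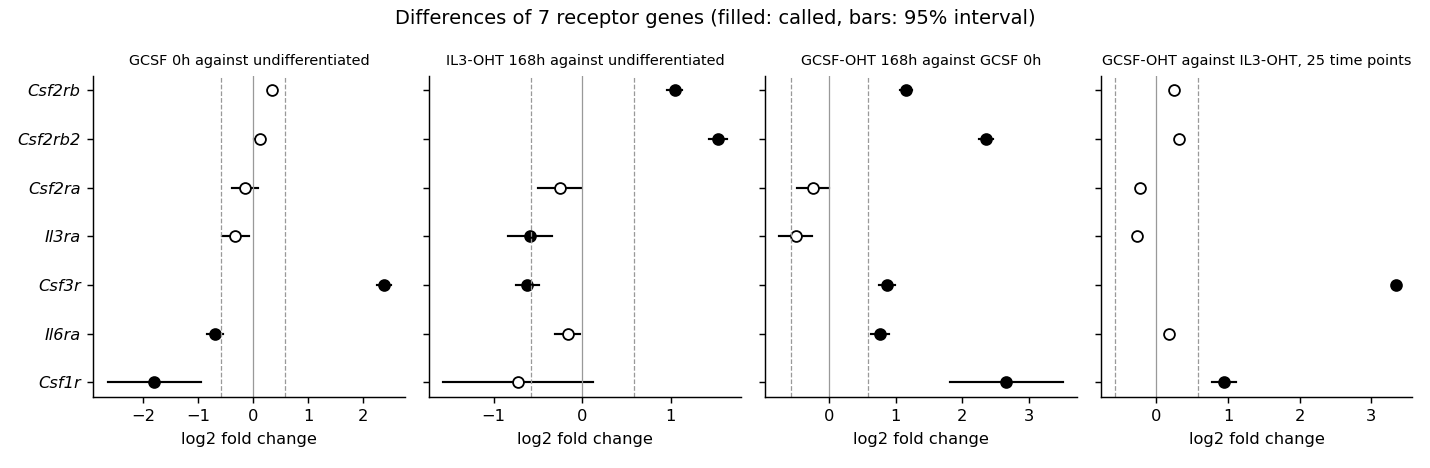
Log2 fold changes of the 7 tested members in 4 comparisons: GCSF 0h against undifferentiated, IL3-OHT 168h against undifferentiated, GCSF-OHT 168h against GCSF 0h, and GCSF-OHT against IL3-OHT over the 25 shared time points. Bars are 95% intervals, filled points were called and dashed lines mark ±0.58; *Csf3r* lies at 2.38 in the first comparison and 3.35 in the last.

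Other genes of the same pathways were read from lists. Of 16 signalling genes, 5 were higher and 0 lower in GCSF-OHT over all shared time points (24.5% of all genes were called there), with a list median of 0.23 against -0.06 for all genes. They included the JAK-activated transcription factor *Stat3* (1.04) and the kinase subunit *Pik3cd* (1.47). *Pik3cd* went from 495, 476 and 416 normalized counts in undifferentiated cells to 3728, 3557 and 4024 at GCSF-OHT 168h and 684, 654 and 635 at IL3-OHT 168h.

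Of 10 feedback genes, 2 were higher and 3 lower in GCSF-OHT (24.5% of all genes). The lower ones were the cytokine-induced inhibitors *Socs1* (-3.45), *Cish* (-2.76) and *Socs2* (-1.70), and the phosphatase *Ptpn6* was higher (0.93). *Cish*, a known STAT5 target, had 8775, 8538 and 8283 normalized counts in undifferentiated cells and 2062, 1785 and 1726 at GCSF 0h. It was already called lower before OHT (-2.20), as was *Socs1* (-3.71). In that exchange 3 feedback genes rose and 5 fell (33.7% of all genes were called).

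Of 28 other cytokine receptors 24 were tested, and 4 were higher and 5 lower in GCSF-OHT (24.5% of all genes), with a median of 0.09. They included the IL1 decoy receptor *Il1r2* (2.46) on the higher side and *Il7r* (-2.83), *Il10ra* (-1.50) and *Il13ra1* (-1.34) on the lower. *Il10ra* was near the floor, with 0 to 1 read in undifferentiated libraries, 0 at GCSF-OHT 168h and 4 to 8 at IL3-OHT 168h. *Il7r* had 1 to 10 reads at GCSF-OHT 168h and 18 to 44 at IL3-OHT 168h. *Il6st*, the partner of *Il6ra*, had at most 4 reads in any library and was not tested. Of 7 ligand genes 4 were tested, and *Csf1*, which encodes the ligand of *Csf1r*, was the 1 called (24.5% of all genes), higher in GCSF-OHT by 1.41. It had 272.5, 215.2 and 272.1 normalized counts at GCSF-OHT 168h and 39.2, 40.3 and 36.8 at IL3-OHT 168h. *Il3* had no reads and *Csf2* and *Il6* had at most 3 in any library.

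The genes whose means ran most like each member over 54 groups were named by Pearson's r, which describes groups that share libraries and scaling. For *Csf3r* they were *Lbp* (0.975), *Chil1* (0.974) and *Hdc* (0.972), and for *Csf2rb* they were *Csf2rb2* (0.911), *Hsdl1* (0.861) and *Wasf2* (0.828). *Csf2rb2* was followed by *Csf2rb*, *Zfp710* (0.849) and *Ifnar1* (0.834). The transcripts of *Csf2rb* and *Csf2rb2* are near copies, and the part of shared reads in their r was not tested. *Csf2ra* had *Il3ra* (0.744), *Aldh18a1* (0.730) and *Ruvbl2* (0.722) as its nearest genes, and *Il3ra* had *Itgb4* (0.914), *Tcn2* (0.829) and *Tle1* (0.817). For *Il6ra* the values were lower, at 0.735 for *Kat6b* and 0.658 for *Kmt2e*.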

How the data were processed

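Polyadenylated RNA of PUER cells was sequenced in 165 libraries, assigned to condition, time point and replicate by their labels. The titles of the GCSF 0h libraries name OHT, but their other labels and the study's methods place them before it. The authors quantified reads with Salmon (selective alignment, GRCm38) and divided them by DESeq2 size factors, so the deposited values are normalized signal, the normalized counts of genes. How transcripts were summed to genes is not given in the sources used here. Dividing by the value of 1 read gave whole reads (100% of 2694265 nonzero values, relative tolerance 1e-06), which were used for the count tests. A 3-read floor was 1.96 to 5.51 normalized counts, which covers counting error only. No other per-sample columns were present (0).

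Genes that reached a normalized count of 5 in any library (17414) entered the test with limma 3.58.1 in R 4.3.3 (lmFit, eBayes with trend, 1 mean per group) on log2(normalized count + 1) in 159 libraries, and, for comparisons with the neighbours of a refresh, in all 165 (17439 genes). Log2 changes are on that scale, which understates the change of low genes. Folds are ratios of mean normalized counts. Benjamini-Hochberg adjustment was over all genes per comparison, and a gene was called at an adjusted p under 0.05 with an absolute log2 change over 0.58. IL5 receptor α did not pass the filter. Window values are means of 5, 10 and 10 time points. Python 3.11.15 was used for levels, sequences and figures, transcript lengths and gene positions were taken from GENCODE M21, and RefSeq promoters from GRCm38.p6, the same build.

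Members, gene lists and tests were chosen with earlier results of these data known. From each pathway list, up to 4 called genes with the largest difference between the conditions over shared time points were named, and for each member with a time-point mean of at least 50, the 3 genes with the highest Pearson's r; some genes that this rule names are not reported here. Alternatives were pseudocounts of 0.5 and 5, no filter, a mean of at least 10, upper-quartile scaling, each replicate left out, the replicate number as a block, edgeR 4.0.16 (quasi-likelihood) and DESeq2 1.42.0 on the recovered reads, and keeping IL3-OHT 96h and 144h. The GC balance as a covariate and leaving out the 120h libraries, whose names carry another prefix, were added after seeing the data. The fits were tested on simulated data.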

Additional observations from a re-analysis of the deposited data

Results flagged for a closer look

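The interaction in limma was the change from the start in GCSF minus that in IL3 (log2 scale). Results for which it was called were singled out. These were *Csf1r* over 1h to 8h (1.36), 12h to 72h (2.832) and 80h to 168h (3.358), *Csf3r* over the same windows (0.6307, 0.786 and 1.333), *Il6ra* (0.738, 0.9675 and 0.8415), and *Csf2rb2* over 80h to 168h (0.6189). For *Csf1r* and *Il6ra* GCSF 0h lay below undifferentiated cells before OHT was added, and for *Csf3r* it lay above.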

How the results depend on the processing

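Of 56 called differences of the members, 48 were called under every alternative, 8 were lost under at least 1 and 0 reversed direction. The number of members called moved by more than 1.5 times in 4 comparisons, and by 1 member, or by a few steps, in others. For IL3-OHT 168h against undifferentiated cells it was 2 to 4 when a replicate was left out (2 without replicate 2). For GCSF-OHT against IL3-OHT over 1h to 8h it went from 1 to 2 with edgeR, with DESeq2 and without replicate 2, by a lower *Csf1r* in GCSF (-0.67, -0.74 and -0.61). For IL3-OHT 96h it went from 1 to 2 without replicate 1 and with the GC balance as a covariate (*Csf2rb* 0.58 in both), and for IL3-OHT 48h from 0 to 1 with that covariate (*Csf2rb2* 0.58). The cause was not tested. Among uncalled differences, the sign of *Csf1r* over 1h to 8h in GCSF turned without replicate 2 (range -0.12 to 0.55 over the replicates left out), and that of *Csf2ra* with the GC covariate at GCSF-OHT 168h against undifferentiated cells (0.0756) and against GCSF 0h (0.17). *Il6ra* in GCSF was not called without replicate 3 over 12h to 72h (0.51) or 80h to 168h (0.49), nor without replicate 2 (0.58 and 0.57), and was called over 1h to 8h without replicate 1 (0.66). *Csf1r* at GCSF-OHT 168h against undifferentiated cells was called with a pseudocount of 5 (0.65), edgeR (0.96) or the GC covariate (1.15).

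Replicate numbers did not pair the libraries: in 5 of 1378 pairs of groups did all same-numbered libraries deviate together (correlation over 0.1). With the replicate block, the number of member steps called was 13 in place of 14 in IL3 and 7 in place of 6 in GCSF, and the number of members called was as without it in the other comparisons, for example 4 at IL3-OHT 168h. Among all genes, calls for GCSF-OHT against IL3-OHT over 1h to 8h went from 5581 to 3633 with a mean of at least 10, steps in IL3 from 15889 to 24453 with 96h and 144h kept, and those for GCSF-OHT 48h from 61 to 23 and 39 with a replicate left out and 93 with edgeR. Calls also fell, in percent of genes tested, for IL3-OHT 48h without replicate 2 (from 1.60% to 0.651%), for GCSF-OHT 96h without replicate 2 (from 4.65% to 2.49%) and for GCSF-OHT 144h without replicate 1 (from 1.85% to 1.01%). Leaving out the 120h libraries changed the call of no member difference outside the consecutive steps. Any change over the IL3 course was called for 7 members in place of 6 with no filter or with upper-quartile scaling, and over the GCSF course for 5 in place of 6 with the GC covariate. By Spearman's rho, 13 of 18 likenesses chosen by the rule fell outside the nearest 3. Depth limits *Csf1r* and *Il5ra*.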
